A study of Mus musculus with 42 samples.

Results

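The genes described here make fatty acids from acetyl-CoA: Srebf1, Acly, Me1, Acaca, Acacb, Fasn, Elovl6, Scd1, Scd2 and Thrsp. They were chosen by name, as the non-control probes of the array that carry one of these gene symbols. Of the 10 genes, 9 were found under their current symbol with 15 probes, and Me1 was found under its older symbol Mod1 with 2 probes. The 10 genes therefore had 17 of the 41174 non-control probes and were 10 of 27597 named genes. Of the 17 probes, 12 were well above background on every array, and 5 of the genes had more than 1 probe.

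The study asked what the loss of 1 copy of Akt1, a kinase that acts downstream of the insulin receptor, does in mice as they age. RNA of liver, muscle (quadriceps, per the labels) and visceral fat of female C57BL/6 mice was hybridised to 42 one-colour microarrays, 14 for each tissue. In each tissue wild-type (Wt) mice and Akt1+/- littermates, which carry the loss in every cell from the germ line, were sampled at 8 weeks (3 arrays per genotype) and at 35 weeks (4 arrays per genotype). The age of 35 weeks is that of the labels, whereas the study's methods give another age and fewer mice for the older groups. No group received a treatment. The labels number the replicates as separate samples without naming the mice, so that p-values measure the spread between these samples, and whether the 3 tissues came from the same mice is not given in the sources used here.

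Fatty acid synthesis starts in the cytosol with citrate, which ATP citrate lyase (Acly) cleaves to acetyl-CoA. Acetyl-CoA carboxylase turns acetyl-CoA into malonyl-CoA, and fatty acid synthase (Fasn) condenses malonyl-CoA units into palmitate with NADPH that malic enzyme (Me1) helps to supply. Elovl6 elongates palmitate to stearate, and the stearoyl-CoA desaturases (Scd1, Scd2) introduce a double bond into it. Insulin raises the transcription of this pathway through the transcription factor SREBP-1 (Srebf1), which acts downstream of Akt in liver. The pathway is known for its high activity in liver and adipose tissue and for its response to feeding.

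The sequences upstream of Fasn, Elovl6 and Thrsp are shown because these genes had the largest differences between the genotypes in fat at 8 weeks and, for Fasn and Elovl6, the largest spread between arrays of a group. RefSeq promoter windows on the GRCm38.p6 assembly matched 8 of the 10 genes, with 11 windows in all, and Scd1 and Scd2 were not matched. Each sequence is the 250 bases before the annotated start, 5′ to 3′ on the strand of the gene, and capitals mark each CCAAT on either strand.
Fasn (GRCm38.p6 chr11:120824548-120824797, minus strand): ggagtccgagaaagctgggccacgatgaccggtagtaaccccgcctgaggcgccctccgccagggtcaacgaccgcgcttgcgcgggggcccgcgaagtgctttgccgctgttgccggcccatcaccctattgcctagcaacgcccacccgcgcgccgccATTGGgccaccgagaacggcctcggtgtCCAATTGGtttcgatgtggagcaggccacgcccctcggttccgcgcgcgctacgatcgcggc
Elovl6 (GRCm38.p6 chr3:129532136-129532385, plus strand): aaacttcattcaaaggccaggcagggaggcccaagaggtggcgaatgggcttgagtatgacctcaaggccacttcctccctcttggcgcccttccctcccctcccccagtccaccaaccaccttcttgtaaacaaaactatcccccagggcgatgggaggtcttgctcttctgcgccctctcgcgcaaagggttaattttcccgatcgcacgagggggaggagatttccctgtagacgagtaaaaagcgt
Thrsp (GRCm38.p6 chr7:97417551-97417800, minus strand): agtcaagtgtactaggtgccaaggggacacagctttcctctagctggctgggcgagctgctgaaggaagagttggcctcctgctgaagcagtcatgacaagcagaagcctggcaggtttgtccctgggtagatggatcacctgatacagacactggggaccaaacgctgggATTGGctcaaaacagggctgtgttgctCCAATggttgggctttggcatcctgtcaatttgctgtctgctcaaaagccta
CCAAT was found 3 times upstream of Fasn, where 2 of the matches overlap on opposite strands in CCAATTGG, and 2 times upstream of Thrsp. It was not found in the Elovl6 window. Over the genes with a window, CCAAT was in 6 of 11 windows of 5 genes, beside 33.8% of 32851 windows of the same length. GGGCGG was in 4 of the 11 windows, of 3 genes, beside 32.7% of all windows. The sterol regulatory element-like TCACNCCAC, with a share of 1.05% of all windows, and the E-box CACGTG, with 6.02%, were in 0 of the 11 windows. Both strands were searched for each of these letters, and a match describes the sequence only.

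Levels are given as the log2 of the processed intensity minus the 75th percentile of the array, so that a value of 1 higher is a 2-fold brighter signal. A level serves to compare arrays for the same probe, and levels of different genes cannot be set against each other. The 75th percentile of the intensity ranged from 274.2 to 795.1 over the arrays, and 56.52 to 68.64% of probes stood well above background on an array. Saturated spots were not found. Each gene stands for its brightest probe, and a gene is called where the adjusted p of limma, fitted over all genes of a tissue with Benjamini-Hochberg adjustment, was under 0.05.

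Akt1 itself was lower in Akt1+/- tissues by 0.67 (SE 0.08, adjusted p = 0.00251) in liver and by 0.55 (SE 0.07, adjusted p = 0.00649) in fat. In muscle its difference was -0.58 (SE 0.11, adjusted p = 0.0747), and the genotypes did not overlap at either age in any tissue. Whether its probe lies in the deleted sequence is not given in the sources used here. Albumin in liver, Ckm in muscle and Adipoq in fat matched the tissue labels on all arrays. The muscle library labelled Akt1+/- 8 weeks replicate 3 stood apart, with a summed level of 6 hepatocyte markers of 6.19 beside -1.82 to 2.95 on the other muscle arrays, and the genotype differences and age calls named in muscle are also given without it. No slide and no scan day held both ages of a tissue, so that age and slide cannot be told apart. In liver at both ages, and in every tissue at 35 weeks, no slide held both genotypes. Genotype and slide cannot be told apart there, and the genotypes of 35-week fat were also scanned on different days. In these tissue samples, fewer cells of a type and less RNA per cell cannot be told apart either.

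The genes differed widely in level between the tissues. Over all arrays, 9 or 10 of the 10 genes were called in each pair of tissues, and most stood highest in fat. Called genes were also the rule among all 19861 genes tested: 85.8% between liver and muscle, with 40.5% higher in liver, 86.2% between fat and liver, with 42% higher in fat, and 87.6% between fat and muscle, with 43.7% higher in fat. Between liver and muscle 10 of the 10 genes were called, 6 of them higher in liver. Between fat and liver 9 were called, 7 of them higher in fat, and between fat and muscle 10 were called, 8 of them higher in fat.

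**Figure D1:**
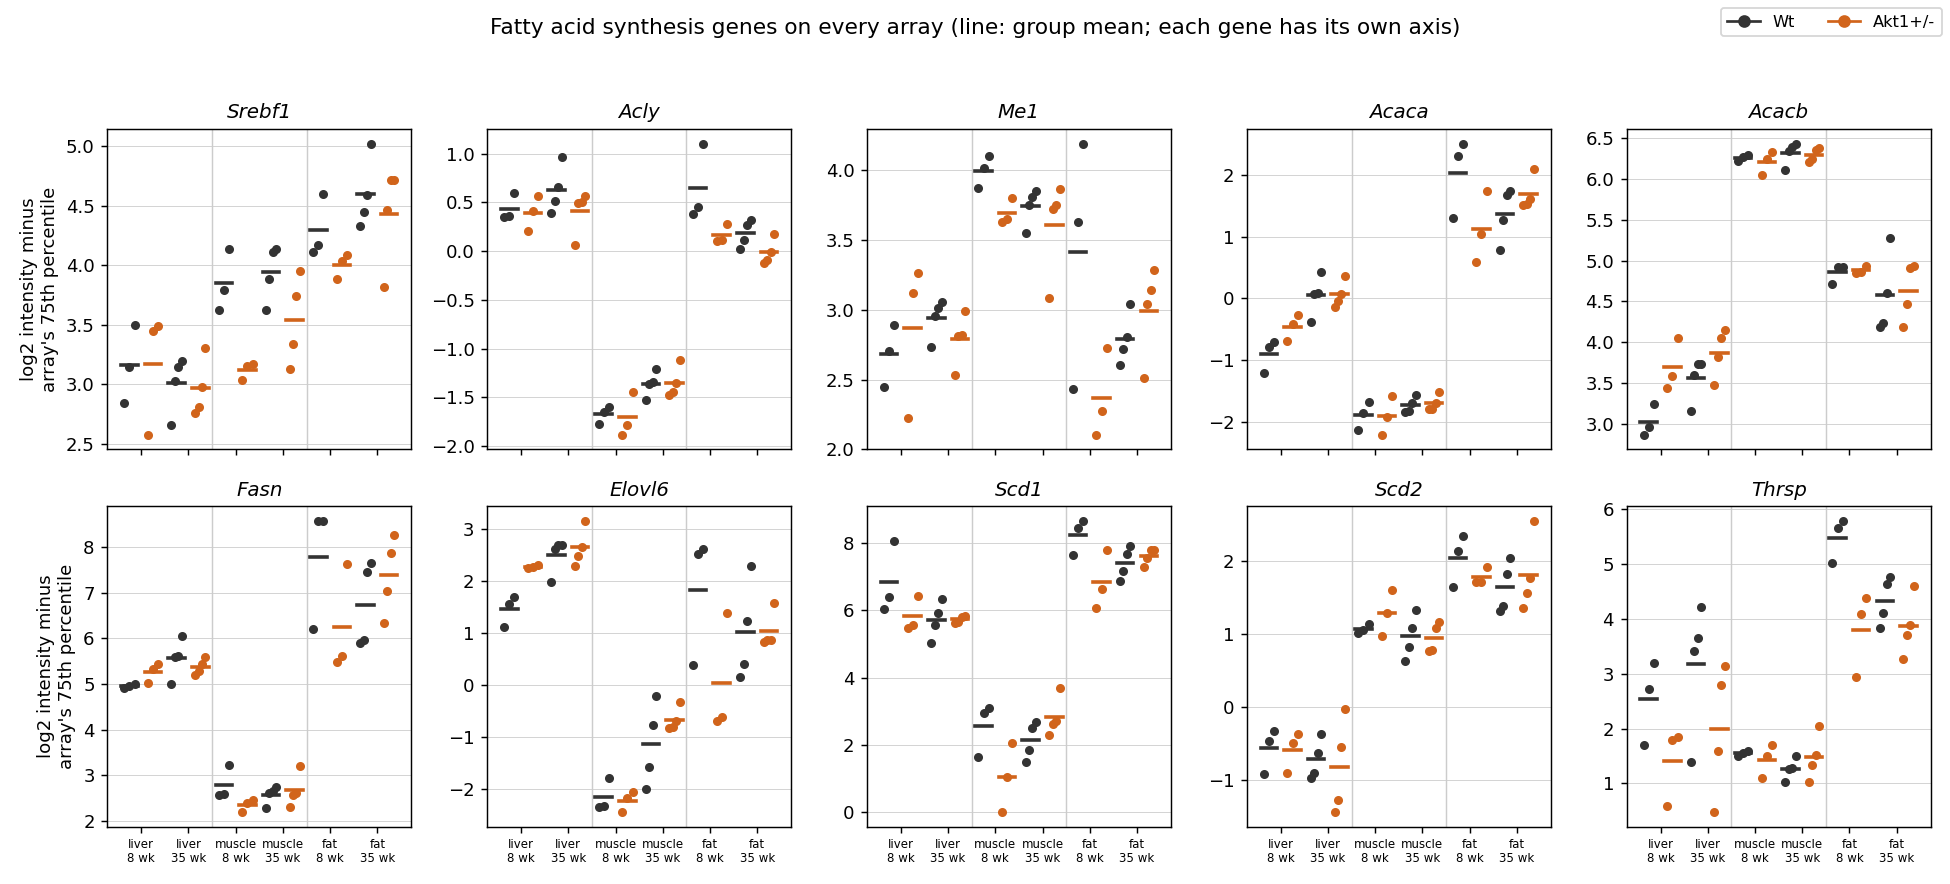
Level of each gene on every array (y axis, log2 signal relative to the 75th percentile of the array, a separate axis for each gene), by tissue and age (x axis), with Wt in black and Akt1+/- in orange and a line at each group's mean. Scd1 and Fasn lie lowest in muscle and highest in fat, Acacb lies highest in muscle, and the 8-week fat groups differ most in Fasn, Elovl6, Scd1 and Thrsp. For Me1 the probe of the fit over all tissues is drawn, which in liver differs from the probe used within that tissue.

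Srebf1 encodes the regulator of the pathway. Its level ran from 2.57 over a median of 3.09 to 3.49 on the 14 liver arrays, from 3.03 over 3.68 to 4.14 in muscle and from 3.82 over 4.38 to 5.02 in fat. The tissues overlapped at each step of this order, although the means differed, fat over liver 2.38-fold and fat over muscle 1.64-fold. 

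Of the genes that supply acetyl-CoA and NADPH, Acly was lowest in muscle, at -1.88 over -1.46 to -1.12. Fat followed, at -0.12 over 0.15 to 1.10, and liver was at 0.06 over 0.50 to 0.96. Muscle did not overlap with the other tissues, fat overlapped with liver, and the mean of fat was below that of liver by a log2 difference of -0.22. Me1, the cytosolic malic enzyme, was highest in muscle (3.09 over 3.78 to 4.10) and overlapped in all 3 tissues. Its level in fat (2.10 over 2.76 to 4.19) was not called against liver (difference 0.07, SE 0.13, adjusted p = 0.601), and the sign depended on the probes, with -0.36 (adjusted p = 0.0124) for the mean of both probes.

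The carboxylases had different orders. Acaca, which makes the malonyl-CoA used for synthesis, lay from -2.22 over -1.80 to -1.52 in muscle, from -1.21 over -0.21 to 0.42 in liver and from 0.58 over 1.57 to 2.51 in fat, and no tissue overlapped with another. Fat exceeded liver 3.65-fold and muscle 10.3-fold. Acacb, whose malonyl-CoA at the mitochondrion restrains fatty acid oxidation, had the opposite order of muscle and liver. It lay from 2.86 over 3.59 to 4.14 in liver, from 4.19 over 4.85 to 5.27 in fat and from 6.04 over 6.28 to 6.43 in muscle, again with no overlap. Its log2 difference between liver and muscle was -2.74 (adjusted p = 3.62e-23).

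Fasn was at 2.19 over 2.58 to 3.23 in muscle, 4.91 over 5.31 to 6.05 in liver and 5.49 over 7.24 to 8.57 in fat. Muscle was apart, and liver and fat overlapped. Fat exceeded muscle by 4.44 (21.7-fold, adjusted p = 7.14e-18) and liver by 1.74 (3.35-fold).

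Elovl6 was lowest in muscle, from -2.45 over -1.69 to -0.22, and highest in liver, from 1.12 over 2.30 to 3.16. Fat, from -0.69 over 0.86 to 2.61, overlapped with both. Liver exceeded muscle by 3.77 (SE 0.24, 13.6-fold, adjusted p = 2.87e-16). Of the desaturases, Scd1 had the widest range: -0.01 over 2.39 to 3.69 in muscle, 5.03 over 5.83 to 8.07 in liver and 6.07 over 7.66 to 8.67 in fat. Fat exceeded muscle by 5.39 (42-fold, adjusted p = 1.2e-20), and liver and fat overlapped. Scd2, the desaturase known from brain, was lowest in liver instead, at -1.44 over -0.59 to -0.03, and did not overlap there with muscle (0.63 over 1.06 to 1.59) or fat (1.31 over 1.74 to 2.54). Fat exceeded liver 5.6-fold in Scd2.

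Thrsp, the thyroid hormone-responsive spot protein that accompanies lipogenesis, was at 1.02 over 1.50 to 2.04 in muscle, 0.48 over 2.29 to 4.21 in liver and 2.94 over 4.25 to 5.79 in fat. The tissues overlapped at each step. Ordered over the 12 groups, 8 to 11 of the 11 neighbouring pairs of groups overlapped for each gene, and the highest group was Wt fat at 8 weeks for Acaca, Fasn, Acly, Scd1, Scd2 and Thrsp.

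In fat of 8-week-old mice 9 of the 10 genes had a lower mean in Akt1+/- than in Wt mice, with a median difference of -0.98 beside -0.02 over all genes tested. None of these differences passed the adjusted threshold, while 1.84% of the 18366 genes tested in fat did (338 genes). At an unadjusted p under 0.05 there were 6 of the 10 genes, beside 24.1% of all genes. At 35 weeks 0 of the 10 genes were called, beside 1.72% of all genes, and the median difference was 0.11. Over both ages 0 were called, beside 0.822%, and for the interaction, that is the genotype difference at 35 weeks minus that at 8 weeks, 0 were called, beside 1.64%. With an unadjusted p under 0.05 there were 3, 0 and 4 genes in the comparisons of both ages, 35 weeks and interaction, beside 19.2, 12.3 and 20.1% of all genes. All 10 interaction values lay above 0, with a median of 1.22 beside 0.01 over all genes. The interaction and the difference at 8 weeks share the 8-week arrays.

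**Figure D2:**
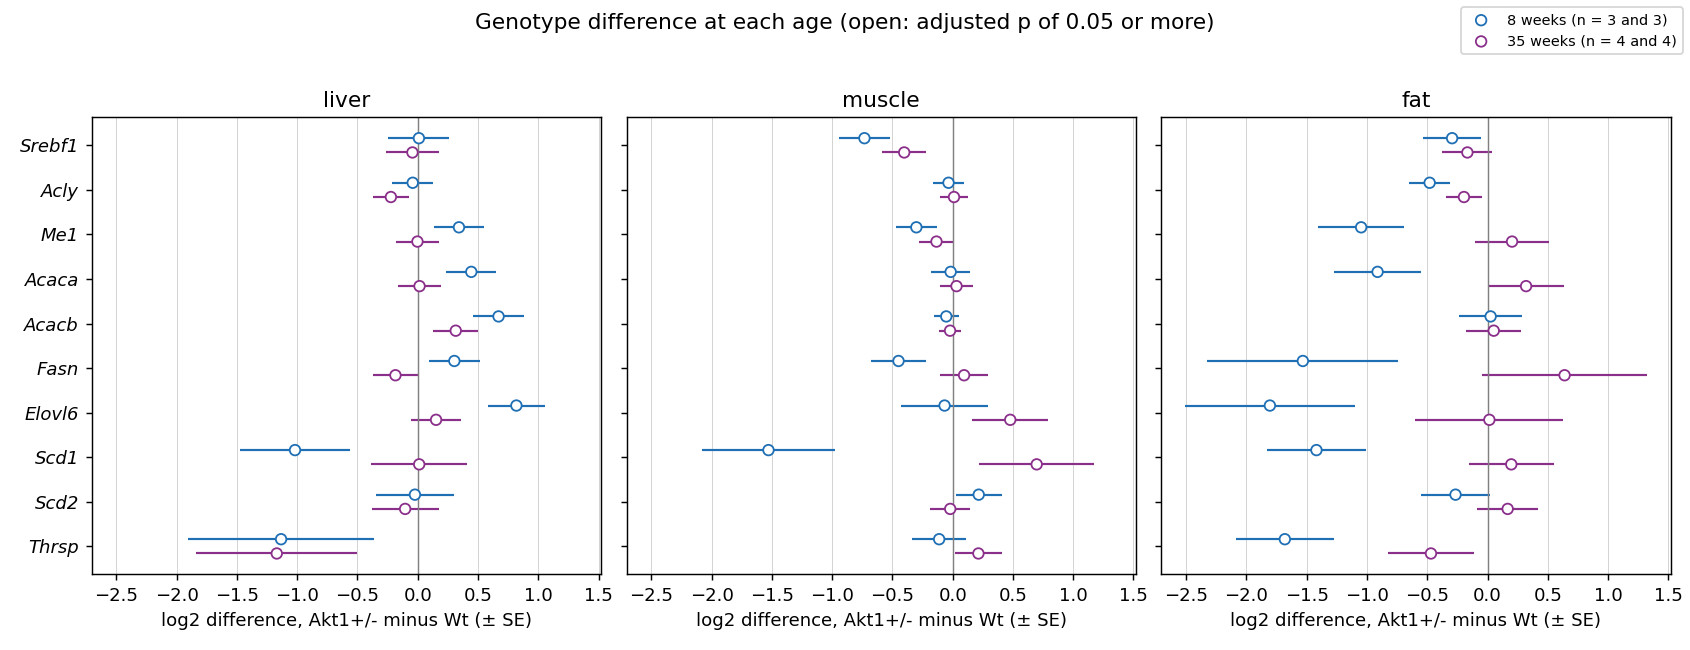
Log2 difference between Akt1+/- and Wt (x axis, points with bars of 1 SE) for each gene (y axis) in liver, muscle and fat, at 8 weeks (blue) and at 35 weeks (purple). All points are open because no adjusted p was under 0.05. In fat the 8-week points of Fasn, Elovl6, Scd1, Thrsp, Me1 and Acaca lie between -1.81 and -0.91, and the 35-week points of these genes lie between -0.47 and 0.64.

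Thrsp came closest to the threshold. Its level in fat at 8 weeks was 5.01, 5.79 and 5.65 on the Wt arrays and 4.08, 4.39 and 2.94 on the Akt1+/- arrays. The genotypes did not overlap. The difference was -1.68 (SE 0.41, 3.21-fold, adjusted p = 0.0567), from means of 5.48 ± 0.41 and 3.80 ± 0.76 (SD, n = 3 each). At 35 weeks the values were 3.83, 4.77, 4.11 and 4.63 in Wt and 3.71, 4.60, 3.89 and 3.27 in Akt1+/- mice, and the genotypes overlapped (difference -0.47).

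Fasn and Elovl6 showed the largest spread. Fasn in fat at 8 weeks was at 6.20, 8.57 and 8.57 in Wt and at 5.49, 5.62 and 7.63 in Akt1+/- mice. In each genotype 1 array stood apart, replicate 1 among Wt arrays on the low side and replicate 3 among Akt1+/- arrays on the high side, and the genotypes overlapped. The difference was -1.53 (SE 0.79, adjusted p = 0.257), and it was -2.14 with the second Fasn probe. Elovl6 had the same arrays apart, at 0.37, 2.61 and 2.51 in Wt and at -0.61, -0.69 and 1.39 in Akt1+/- mice. Its difference was -1.81 (SE 0.71, 3.49-fold, adjusted p = 0.151). At 35 weeks Fasn was at 5.90, 7.64, 5.96 and 7.45 in Wt and 6.34, 7.03, 8.27 and 7.86 in Akt1+/- mice (difference 0.64), so that the groups again overlapped.

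Scd1 in fat at 8 weeks was at 7.65, 8.45 and 8.67 in Wt and at 6.07, 6.63 and 7.81 in Akt1+/- mice, where replicate 3 overlapped with the lowest Wt array. The difference was -1.42 (SE 0.41, 2.67-fold, adjusted p = 0.0755). At 35 weeks it was 0.20, and the interaction was 1.62 (SE 0.54, adjusted p = 0.131). Acaca was at 1.30, 2.51 and 2.31 in Wt and 1.04, 0.58 and 1.75 in Akt1+/- mice at 8 weeks. The lowest Wt array lay below the highest Akt1+/- array, and the difference was -0.91 (SE 0.36, adjusted p = 0.157) with its brightest probe and -0.48 to -0.45 with the other 3 probes. 

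Of the supply enzymes, Acly was at 0.38, 1.10 and 0.46 in Wt and 0.10, 0.12 and 0.28 in Akt1+/- fat at 8 weeks. The genotypes did not overlap, with a difference of -0.48 (SE 0.17, 1.39-fold, adjusted p = 0.118). Me1 was at 2.43, 4.19 and 3.63 in Wt and 2.10, 2.28 and 2.72 in Akt1+/- mice. Its genotypes overlapped through Wt replicate 1, and the difference was -1.05 (SE 0.36, 2.07-fold, adjusted p = 0.109), or -1.42 with the other Me1 probe.

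Srebf1, Scd2 and Acacb differed least. Srebf1 was at 4.17, 4.60 and 4.11 in Wt and 3.88, 4.08 and 4.03 in Akt1+/- fat at 8 weeks, with no overlap but a difference of -0.29 (SE 0.24, adjusted p = 0.472). The difference was -0.27 in Scd2 (adjusted p = 0.601), whose groups overlapped, and 0.03 in Acacb. In all, 3 of the 10 genes, Acly, Srebf1 and Thrsp, did not overlap between the genotypes in fat at 8 weeks, all lower in Akt1+/- mice, beside 27.1% of all genes without overlap in either direction. At 35 weeks this held for 0 of 10, beside 9.88%.

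Wt fat replicate 1 at 8 weeks weighed on these values. Without it Thrsp (-1.92, adjusted p = 0.0495) and Me1 (-1.54, adjusted p = 0.03) were called at 8 weeks, the Fasn difference was -2.32 (adjusted p = 0.105) and that of Elovl6 was -2.54 (adjusted p = 0.0645). The interaction of Me1 was then 1.74 (adjusted p = 0.0241). On the slide shared by both genotypes, which held Wt replicate 3 and the 3 Akt1+/- arrays, the difference was -2.33 in Fasn, -2.49 in Elovl6, -1.83 in Scd1 and -1.85 in Thrsp. There it was -1.18 in Acaca, -1.26 in Me1, -0.29 in Acly and -0.11 in Srebf1, and it lay above 0 in Scd2 (0.13) and Acacb (0.16). With a replicate block Scd1 was called at 8 weeks (adjusted p = 0.0484). In a fit over all 42 arrays Me1, Elovl6 and Acaca were called at 8 weeks, with adjusted p of 0.0175, 0.0252 and 0.0323. That fit pools the spread over the tissues. The SD within groups of Me1, Elovl6 and Acaca was 0.475, 0.956 and 0.485 in fat. It was 0.267, 0.309 and 0.265 in liver and 0.217, 0.487 and 0.201 in muscle. These 3 calls therefore rest on a smaller spread than that of fat.

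Marker lists of other cells also had different levels in these groups. The summed level of 8 adipocyte markers, all of them above background, ranged from 10.79 to 11.16 in Wt and from 10.86 to 10.99 in Akt1+/- fat at 8 weeks, and at 35 weeks it was lower in Akt1+/- fat without overlap (10.68 to 10.94 beside 11.04 to 11.24). That of 5 mammary epithelium markers, 3 of them above background on any fat array, was 1.85 to 2.78 in Wt and 3.20 to 3.91 in Akt1+/- fat, and that of 4 mesothelium markers was 4.38 to 4.93 and 5.04 to 5.61. The milk protein Csn2 and Elf5 were well above background on 0 of the 14 fat arrays. The milk protein Wap was so on 12, at a dim -6.15 to -3.70, beside 0.82 to 2.79 in Krt8 and 0.84 to 3.02 in Krt18. The summed level of the mammary list thus rests mainly on Krt8 and Krt18, keratins that other epithelia and mesothelium also express. The part of these cells in the differences was not tested.

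In liver the means of part of the pathway lay in the other direction at 8 weeks. At this age 6 of the 10 genes had a higher mean in Akt1+/- mice, and Acaca, Acacb, Elovl6 and Fasn did not overlap between the genotypes, all higher in Akt1+/- mice. Genes without overlap, in either direction, made up 25.2% of all genes in liver at 8 weeks. No gene of the pathway was called at 8 weeks, beside 2.16% of the 17561 genes tested, at 35 weeks, beside 3.56%, over both ages, beside 6.28%, or for the interaction, beside 0.558%. The counts at an unadjusted p under 0.05 were 3, 0, 3 and 0 in the same order, beside 20.9, 17, 26.4 and 13.9% of all genes. At 35 weeks 0 of the 10 genes were free of overlap, beside 12.6%.

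Acacb came closest to a call over both ages in liver. It was at 2.96, 3.25 and 2.86 in Wt and 3.44, 3.58 and 4.05 in Akt1+/- mice at 8 weeks, and at 3.73, 3.16, 3.73 and 3.60 and 4.14, 3.48, 4.05 and 3.81 at 35 weeks. The genotypes were apart at 8 weeks and overlapped at 35 weeks. Over both ages the difference was 0.49 (SE 0.14, 1.41-fold, adjusted p = 0.0587), it was 0.40 to 0.56 with each array left out in turn, and its adjusted p was 0.0485 with a replicate block, although the numbers did not pair the arrays at 8 weeks, and 0.0198 in the fit over all 42 arrays. With median scaling the difference was 0.36 (adjusted p = 0.0863). 

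Elovl6 in liver was at 1.70, 1.56 and 1.12 in Wt and 2.25, 2.27 and 2.31 in Akt1+/- mice at 8 weeks. All Akt1+/- arrays were above all Wt arrays, with a difference of 0.82 (SE 0.24, 1.76-fold, adjusted p = 0.0846). At 35 weeks it was at 1.98, 2.62, 2.69 and 2.68 and at 2.65, 2.47, 3.16 and 2.30, with a difference of 0.15. The genotype difference of Elovl6 in fat minus that in liver, over both ages, was -1.38 (SE 0.48, adjusted p = 0.0919), which was called without fat Wt 8 weeks replicate 1 or without fat Akt1+/- 8 weeks replicate 3. Between tissues 0 of the 10 genes were called for a different genotype effect in the fit as a whole, beside 4.27% of genes between fat and liver, 0.896% between liver and muscle and 0.74% between fat and muscle.

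Acaca in liver was at -0.79, -0.72 and -1.21 in Wt and -0.69, -0.41 and -0.28 in Akt1+/- mice at 8 weeks, a difference of 0.44 (SE 0.21, adjusted p = 0.242). Fasn differed by 0.30 (SE 0.21, adjusted p = 0.437) there, with Wt arrays at 4.998, 4.961 and 4.908 and Akt1+/- arrays at 5.012, 5.320 and 5.446, so that the groups were apart by a margin far below the spread of the Akt1+/- arrays. At 8 weeks 4 of the 10 genes had a lower mean in Akt1+/- livers, and at 35 weeks 6 had. Thrsp, Acly and Scd2 were lower at both ages, and Scd1 at 8 weeks only. Srebf1, Me1 and Fasn were lower at 35 weeks only. Fasn was then at a mean of 5.38 beside 5.57 in Wt livers, opposite to its direction at 8 weeks. At 35 weeks the Scd1 means were 5.72 in Wt and 5.73 in Akt1+/- livers. Scd1 was at 6.05, 8.07 and 6.40 in Wt and 6.42, 5.47 and 5.57 in Akt1+/- mice at 8 weeks (difference -1.02, SE 0.46, adjusted p = 0.229), and Thrsp differed over both ages by -1.15 (SE 0.51, adjusted p = 0.173). Both overlapped between the genotypes.

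An adipocyte marker list moved with genotype in liver. At 8 weeks its summed level ranged from 3.50 to 3.79 among Wt arrays and from 4.52 to 6.72 among Akt1+/- arrays, without overlap. At 35 weeks the ranges were 3.62 to 5.37 (Wt) and 4.47 to 6.28 (Akt1+/-), which overlapped, with 7 of 8 markers above background on any liver array. Adipoq, which defines the cell type, was above background on 1 of the 14 liver arrays and Lep on 0. At 8 weeks the 6 macrophage markers summed to 5.91 to 6.23 on the Wt arrays and 6.49 to 6.78 on the Akt1+/- arrays, and the 4 B cell markers to -0.56 to 0.06 and 0.41 to 0.73. The 6 hepatocyte markers were lower in Akt1+/- livers at this age, at 11.50 to 11.63 beside 11.72 to 11.89, and so were the 4 mesothelium markers, at -1.96 to -0.65 beside -0.64 to -0.06. Their part in the differences was not tested.

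In muscle none of the 17138 genes tested was called for genotype over both ages (0%) by limma, at 8 weeks (0%) or for the interaction (0%), and 0.0992% were at 35 weeks. Without adjustment 18.5, 15.8, 8.39 and 9.18% of genes (3170, 2708, 1438 and 1573) had a p under 0.05 in these comparisons, in the order both ages, 8 weeks, interaction and 35 weeks, and the unadjusted test of the study's methods called 957 genes over both ages. Of the 10 genes, 0 were called in each of the 4 comparisons, and 1, 2, 1 and 1 had an unadjusted p under 0.05, in the same order. At 8 weeks 9 of the 10 means were lower in Akt1+/- mice, with a median of -0.09 beside -0.02 over all genes. Without the library that stood apart there were 7 of 10 lower means, with a median of -0.17, and again 0 called genes.

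Srebf1 was nearest to a call in muscle. It was at 3.79, 4.13 and 3.62 in Wt and 3.17, 3.03 and 3.15 in Akt1+/- mice at 8 weeks, and at 4.11, 4.14, 3.62 and 3.89 and 3.74, 3.95, 3.13 and 3.34 at 35 weeks. The genotypes were apart at 8 weeks and overlapped at 35 weeks. Over both ages the difference was -0.57 (SE 0.14, 1.48-fold, adjusted p = 0.112), and without the library that stood apart it was -0.58 (adjusted p = 0.206). On the slide that held the 3 Wt arrays and Akt1+/- replicate 1 it was -0.68 at 8 weeks.

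Scd1 in muscle was at 1.626, 2.948 and 3.102 in Wt and 1.03, -0.01 and 2.06 in Akt1+/- mice at 8 weeks, and at 1.85, 2.50, 1.48 and 2.68 and 2.70, 2.29, 3.69 and 2.62 at 35 weeks. The groups overlapped at both ages, with a lower Akt1+/- mean at 8 weeks (-1.53, SE 0.55, adjusted p = 0.233, and -2.04 with an adjusted p of 0.383 without the library that stood apart) and a higher one at 35 weeks (0.70). The interaction was 2.22 (SE 0.73, adjusted p = 0.47), or 2.74 (adjusted p = 0.627) without the library that stood apart. Fasn, Me1 and Srebf1 were the 3 genes without overlap at 8 weeks in muscle, all lower in Akt1+/- mice, beside 22.4% of all genes. At 35 weeks there were 0, beside 5.55%. The difference at 8 weeks was -0.45 (adjusted p = 0.352) in Fasn and -0.30 (adjusted p = 0.402) in Me1, and without the library that stood apart -0.50 (adjusted p = 0.643) and -0.28 (adjusted p = 0.736). Marker lists were apart between the genotypes in muscle at 8 weeks too. The 8 adipocyte markers, all above background, summed to 7.29 to 7.55 in Wt and 7.61 to 8.36 in Akt1+/- muscle, the 6 macrophage markers to 4.67 to 5.69 and 5.72 to 6.24, and the 4 endothelium markers to 2.98 to 3.19 and 3.38 to 3.75. The 4 B cell markers lay at -2.62 to -2.23 and -2.18 to -1.85, and the 3 red cell markers, which were lower in Akt1+/- muscle, at 7.17 to 7.68 and 6.63 to 6.86. The part of these cells in the differences was not tested.

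A few synthesis genes were called higher with age in liver and muscle, near the share called higher among all genes. In liver Acaca and Elovl6 were higher at 35 than at 8 weeks, and in muscle Elovl6 and Acly were. These were 2 of the 10 genes in each tissue, both higher, beside 35.1% of all genes in liver (20% higher) and 31.3% in muscle (16.9% higher). In fat 0 of the 10 genes were called for age, beside 19.3% of all genes. At an unadjusted p under 0.05 there were 4, 2 and 2 genes in liver, muscle and fat, beside 45, 43.1 and 34.4% of all genes.

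Marker lists differed between the ages as well. In Wt liver the macrophage markers went from 5.91 to 6.23 at 8 weeks to 6.69 to 7.03 at 35 weeks and the B cell markers from -0.56 to 0.06 to 0.50 to 1.12, while in Akt1+/- liver the ages overlapped in both lists. In Wt muscle the adipocyte markers went from 7.29 to 7.55 to 7.79 to 8.11 and the red cell markers from 7.17 to 7.68 to 5.76 to 6.42, and again the ages overlapped in Akt1+/- muscle. The 6 myofibre markers were higher at 35 weeks in both genotypes, from 12.11 to 12.27 to 12.39 to 12.47 in Wt and from 11.94 to 12.23 to 12.25 to 12.36 in Akt1+/- muscle. In Wt fat the macrophage markers went from 7.82 to 8.02 at 8 weeks to 8.05 to 8.29 at 35 weeks. The B cell markers went from -1.21 to -0.76 to -0.67 to 0.45 there. The mammary epithelium markers went from 1.85 to 2.78 to 2.89 to 3.27, and the red cell markers fell from 8.33 to 9.34 to 7.55 to 8.19. In Akt1+/- fat the ages overlapped in each of these lists. The part of these cells in the age differences was not tested.

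**Figure D3:**
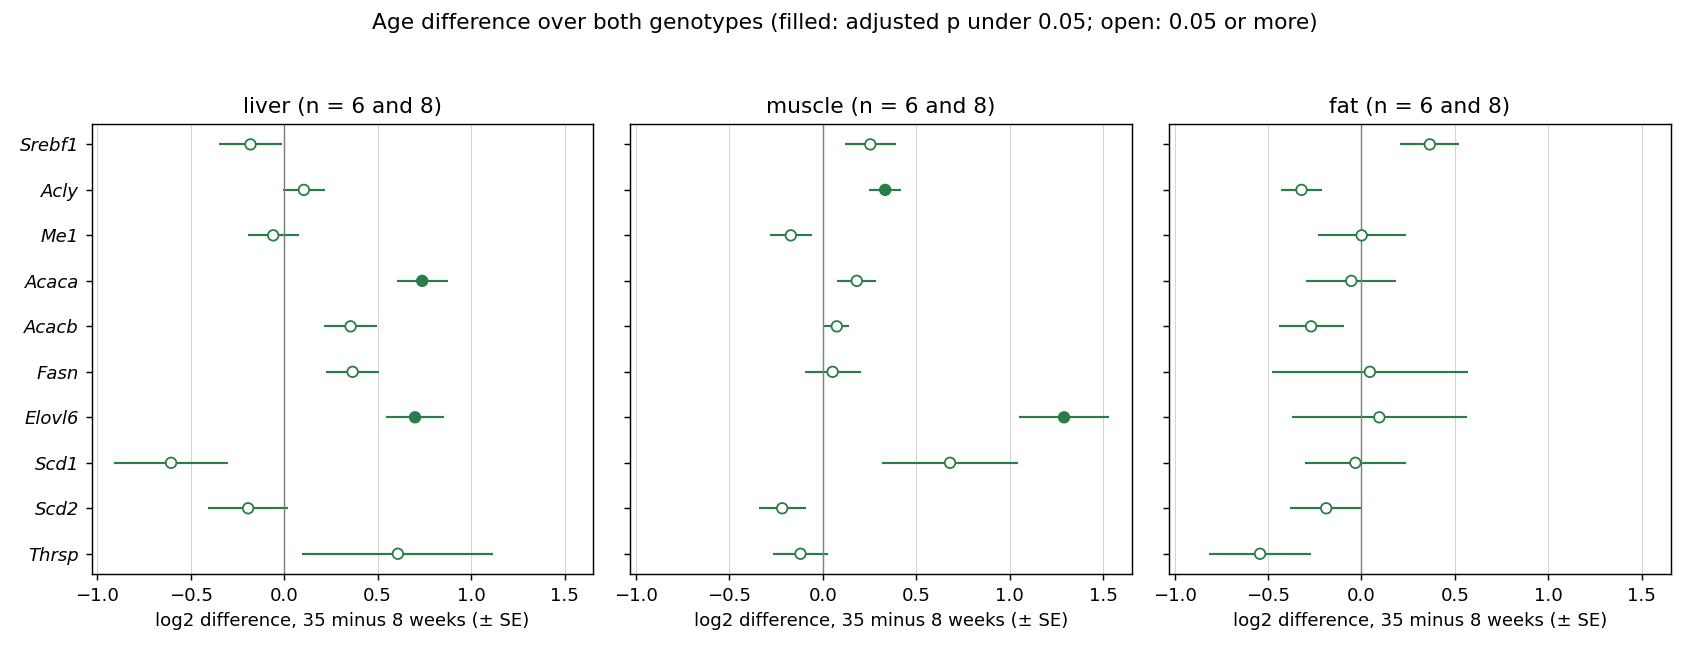
Log2 difference between 35 and 8 weeks over both genotypes (x axis, points with bars of 1 SE) for each gene (y axis) in liver, muscle and fat, filled where the adjusted p was under 0.05. Filled points are Acaca (0.74) and Elovl6 (0.70) in liver and Elovl6 (1.29) and Acly (0.33) in muscle.

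Acaca in liver ranged from -1.21 to -0.28 at 8 weeks and from -0.39 to 0.42 at 35 weeks, with overlap only between the highest Akt1+/- array at 8 weeks and the lowest Wt array at 35 weeks. The difference was 0.74 (SE 0.14, 1.67-fold, adjusted p = 0.0015), and it was 0.66 to 0.81 with each array left out. Elovl6 rose by 0.70 in liver (SE 0.16, 1.62-fold, adjusted p = 0.00462), from a range of 1.12 to 2.31 to a range of 1.98 to 3.16. Its call was lost in the fit over all 42 arrays (adjusted p = 0.101). Fasn (0.37, adjusted p = 0.0596) and Acacb (0.36, adjusted p = 0.0693) were just outside the threshold, and Scd1 differed by -0.60 (adjusted p = 0.141). With normexp and quantile normalization Fasn was called (adjusted p = 0.00783). Acacb was called with a replicate block (adjusted p = 0.038) and in the fit over all 42 arrays (adjusted p = 0.0442).

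The scaling bears on these liver values. With the median of each array in place of its 75th percentile, all liver differences with age shifted by -0.20, and the share of higher genes among those called went from 57.1 to 24.5%. Under that scaling Acaca (0.54, adjusted p = 0.00937) and Elovl6 (0.50, adjusted p = 0.024) remained higher, Scd1 was lower (-0.80, adjusted p = 0.0468), and Fasn differed by 0.17 (adjusted p = 0.379).

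Elovl6 in muscle was at -2.33, -1.80 and -2.36 in Wt and -2.19, -2.45 and -2.05 in Akt1+/- mice at 8 weeks. At 35 weeks it was at -0.22, -0.77, -1.58 and -2.01 in Wt and -0.33, -0.81, -0.69 and -0.84 in Akt1+/- mice. All older arrays but Wt replicate 4 were above every younger array. The rise was 1.29 (SE 0.24, 2.45-fold, adjusted p = 0.00194), and 1.33 (adjusted p = 0.00424) without the library that stood apart. Acly rose by 0.33 (SE 0.09, 1.26-fold, adjusted p = 0.0119), from -1.88 to -1.44 at 8 weeks to -1.52 to -1.12 at 35 weeks, and by 0.31 (adjusted p = 0.0296) without that library.

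Fat differed from liver in the age difference of 3 genes and from muscle in that of 1 gene. The age difference in fat minus that in liver was -0.79 in Acaca (SE 0.25, adjusted p = 0.0297), -0.63 in Acacb (SE 0.20, adjusted p = 0.0285) and -0.43 in Acly (SE 0.15, adjusted p = 0.048), 3 of the 10 genes, beside 16.2% of all genes. Against muscle it was -0.65 in Acly (SE 0.15, adjusted p = 0.00274), 1 gene of 10, beside 16.4% of all genes. Between liver and muscle 0 were called, beside 18.8%, with Scd1 nearest to the threshold (-1.29, adjusted p = 0.0543, and -1.54 with an adjusted p of 0.0203 without the muscle library that stood apart). 

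Acly in fat had its highest group at 8 weeks in Wt mice (0.38, 1.10 and 0.46) and lay at 0.03, 0.27, 0.11 and 0.32 in Wt and -0.12, -0.09, 0.17 and -0.01 in Akt1+/- mice at 35 weeks. Its age difference in fat was -0.32 (SE 0.11, adjusted p = 0.0629). The calls against liver rested on few arrays and on the settings. With slide as a random block 0 of the 3 were called. Without liver Wt 8 weeks replicate 3 none of the 3 held. With median scaling the values were -0.61 in Acaca (adjusted p = 0.0856), -0.44 in Acacb (adjusted p = 0.0972) and -0.24 in Acly (adjusted p = 0.271), and Srebf1 was called instead (0.73, adjusted p = 0.0221). The call of Acly against muscle held with each of the 42 arrays left out, but with the mean of both Acly probes, of which the second was dim, the value was 0.031 (adjusted p = 0.945).

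Arrays of a group spread more in these genes than in most, above all in fat. The pooled SD within groups had a median of 0.480 over the 10 genes in fat, beside 0.221 over all genes tested, and it was 1.07 in Fasn and 0.956 in Elovl6, at percentiles 98.7 and 98.1 of all genes. In liver the median was 0.293 beside 0.217, with 1.06 in Thrsp (percentile 99.1) and 0.621 in Scd1. In muscle it was 0.260 beside 0.195, with 0.740 in Scd1 and only 0.113 in Acacb. 

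**Figure D4:**
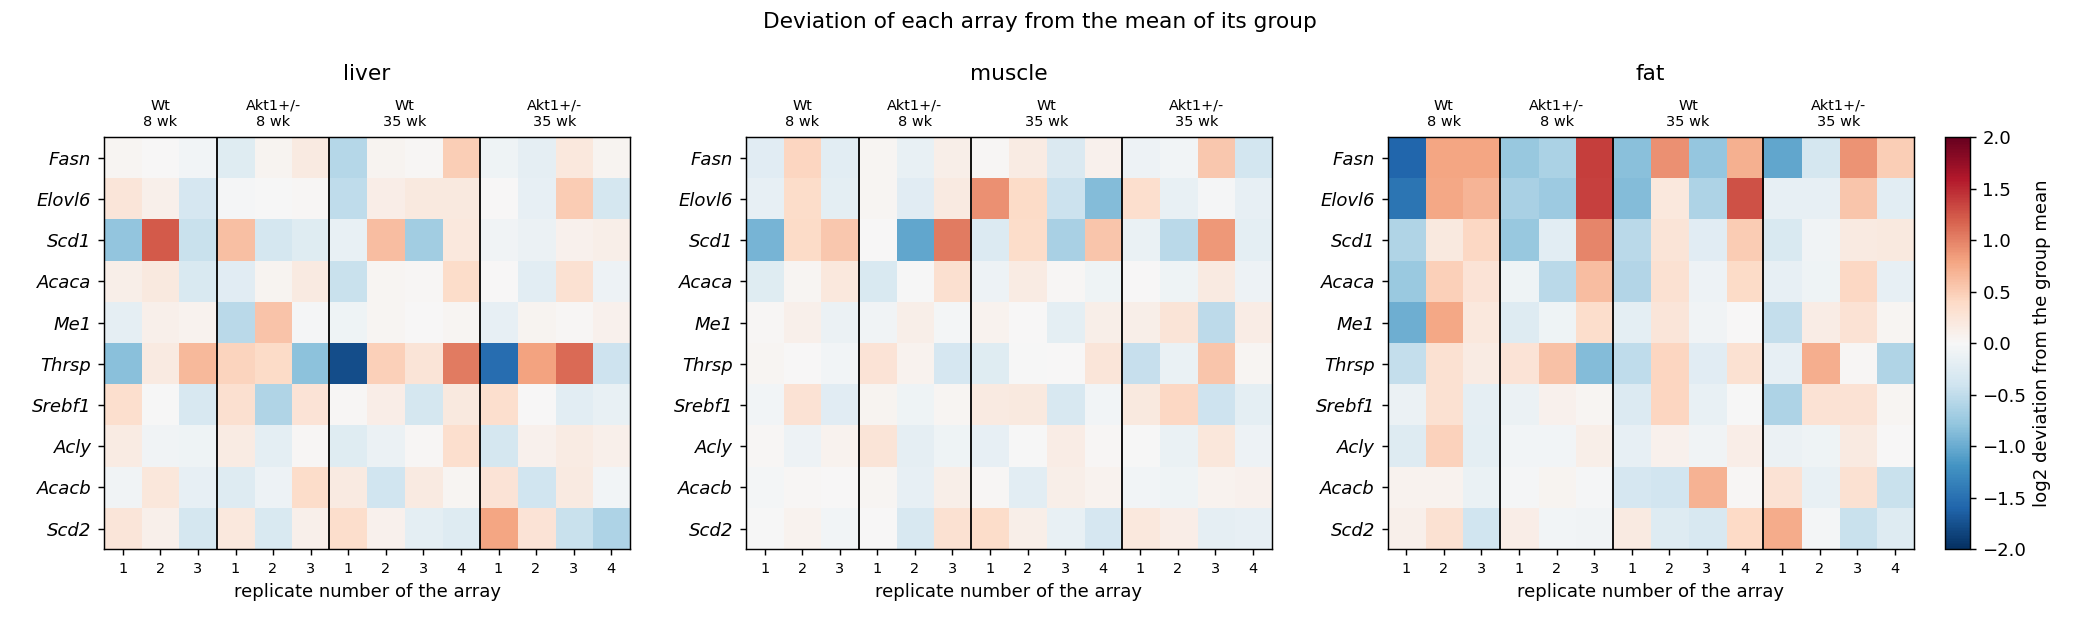
Deviation of each array from the mean of its group (colour, log2, red above and blue below, limited to 2) for each gene (rows) and array (columns, by group and replicate number) in liver, muscle and fat. In fat, columns are mostly of the same colour from Fasn to Me1, as in Wt replicate 1 at 8 weeks (blue) and Akt1+/- replicate 3 at 8 weeks (red).

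In fat the deviations of part of the genes ran together. Over the 14 fat arrays, after each group's mean was subtracted, Pearson's r was 0.93 between Acaca and Elovl6, 0.91 between Fasn and Scd1, 0.90 between Elovl6 and Fasn and 0.84 between Fasn and Me1, and 18 of the 45 pairs of genes were above 0.5. In liver and in muscle 6 of 45 pairs each were above 0.5, and the median r of all pairs was 0.26 in fat, 0.11 in liver and 0.10 in muscle. Pairs with an r below 0 numbered 13 in fat, 16 in liver and 19 in muscle. These correlations are across arrays of 1 tissue that share scaling and slides, and they are given without a test. Wt replicate 1 at 8 weeks had 2 of the 10 genes above its group's mean in fat, with a median deviation of -0.54, and replicate 2 had 10 of 10, with a median of 0.38. Akt1+/- replicate 3 at 35 weeks had 9 of 10 above its group's mean, and Wt replicates 1 and 3 at that age 1 of 10 each. Leptin, an adipocyte hormone whose expression follows the fat stores, was at 0.66, 3.57 and 4.17 in Wt and 2.02, 2.39 and 3.79 in Akt1+/- fat at 8 weeks. Within Wt it was lowest on replicate 1, where Fasn and Elovl6 were lowest too, and within Akt1+/- it was highest on replicate 3, where they were highest. At 35 weeks leptin was at 2.89, 4.29, 2.27 and 4.28 in Wt and 1.66, 3.66, 3.51 and 4.68 in Akt1+/- fat. Leptin and Fasn were both higher on Wt replicates 2 and 4 and lowest on Akt1+/- replicate 1. The lowest Wt array and the highest Akt1+/- array were not the same for leptin and Fasn. A link between them was not tested.

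Genes around the pathway were followed in lists. The 21 lipogenic regulators, with SREBP processing, nuclear receptors and AMPK subunits, had 20 genes tested in liver and 21 in muscle and in fat. For genotype 1 was called, Prkaa2, an AMPK catalytic subunit, whose difference in fat at 8 weeks was -0.67 (SE 0.15, adjusted p = 0.0458). This call was lost with no filter on dim probes (adjusted p = 0.0848) and with a replicate block (adjusted p = 0.0657), and of the 14 fat arrays it held only without Wt 8 weeks replicate 3 or without Akt1+/- 35 weeks replicate 1. Median scaling gave 5 regulators called for genotype over both ages in liver in place of 0. With age, liver had 7 called regulators (1 higher), muscle had 3 (1 higher) and fat had 3 (2 higher), out of 20, 21 and 21 tested and beside 35.1, 31.3 and 19.3% of all genes. In liver the largest falls were those of Insig1 (-0.82), which retains SREBP in the endoplasmic reticulum, Mbtps1 (-0.52), the protease that starts SREBP cleavage, and Usf1 (-0.37), and the rise was that of Prkag1 (0.29). Median scaling gave 13 called regulators in liver in place of 7. In muscle Prkab1 (-0.33) and Usf2 (-0.21) fell and Ppargc1b (0.80) rose, and in fat Mbtps1 (-0.63) fell and Prkaa2 (0.38) and Prkag1 (0.44) rose. The mean of Prkaa2 was -2.52 at both ages in Wt fat and went from -3.20 to -2.44 in Akt1+/- fat. Its age call thus shares the 8-week Akt1+/- arrays with its genotype call. The age call of Prkaa2 was lost with normexp (adjusted p = 0.0757) and with no interaction term (adjusted p = 0.0834).

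The 16 genes of substrate supply, such as glycolytic, pyruvate dehydrogenase and NADPH-producing enzymes, were all tested. Idh1, the cytosolic isocitrate dehydrogenase, was called for genotype over both ages in fat (-0.55, SE 0.11, adjusted p = 0.0417). The call was lost with no filter on dim probes (adjusted p = 0.0747), with a replicate block (adjusted p = 0.0772) and with each fat array left out except Wt 8 weeks replicate 1, Wt 8 weeks replicate 3 and Wt 35 weeks replicate 3. At 8 weeks in fat 0 of 16 were called (4 with normexp) and 10 had an unadjusted p under 0.05, beside 24.1% of all genes, with a median difference of -0.46 beside -0.02 over all genes. In liver 0 were called for genotype over both ages, 6 with median scaling and 3 with normexp. With age, liver had 5 called genes of this list, muscle had 3 and fat had 3, beside the shares of all genes given above. Pfkl (-0.55) and Idh1 (-0.37) fell and Me3 (0.92), Pgd (0.48) and G6pdx (0.26) rose in liver. In muscle G6pdx (0.41) rose and Me3 (-0.29) and Pdha1 (-0.25) fell, and in fat Idh1 (-0.80), Dlat (-0.41) and Pdha1 (-0.35) fell. The falls of Dlat and Pdha1 lay mainly in Wt fat. From 8 to 35 weeks the mean of Dlat went from 2.31 to 1.56 in Wt and from 1.67 to 1.59 in Akt1+/- fat. That of Pdha1 went from 2.90 to 2.26 and from 2.44 to 2.38.

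Of 16 other elongases, desaturases and related enzymes, 14, 12 and 13 were tested in liver, muscle and fat. Elovl3, an elongase of very long chains, was called in liver for genotype at 8 weeks (-1.88, SE 0.34, 3.68-fold, adjusted p = 0.0255) and for the interaction (2.70, SE 0.46, adjusted p = 0.0271). The call at 8 weeks was lost with no filter on dim probes (adjusted p = 0.0575), with slide as a random block (adjusted p = 0.0501), and without Wt 8 weeks replicate 2 or 3 or Akt1+/- 8 weeks replicate 2. The interaction lost its call with a replicate block (adjusted p = 0.0674), with slide as a random block (adjusted p = 0.0702), in the fit over all 42 arrays (adjusted p = 0.0509) and with 7 of the 14 liver arrays left out in turn, among them Wt 8 weeks replicates 2 and 3. At 8 weeks its Wt arrays were at -0.94, 0.12 and 0.48 and its Akt1+/- arrays at -1.93, -2.59 and -1.47. At 35 weeks the Wt arrays were at -1.25, -1.44, -1.78 and -1.47 and the Akt1+/- arrays at -0.79, -0.47, -1.04 and -0.39. The genotypes did not overlap at either age, and Wt was above Akt1+/- at 8 weeks and below it at 35 weeks. With age 2, 3 and 1 of the list were called in liver, muscle and fat, beside 35.1, 31.3 and 19.3% of all genes. Among them was Hacd1, a dehydratase of the elongation cycle known from muscle, which fell by 1.44 in muscle (adjusted p = 1.61e-05). Elovl1 fell there (-0.31) and Scd3 rose (0.59), which was well above background on 10 of the 14 muscle arrays. In liver Fads1 fell (-0.41), Scd3 was called higher with age (adjusted p = 0.048) but was not well above background on any liver array at 8 weeks, and in fat Elovl7 fell (-0.81). Median scaling gave 9 called genes of this list in liver.

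The 8 genes of mitochondrial fatty acid synthesis, a separate route that makes lipoic acid precursors, were all tested. Cbr4, a subunit of its ketoacyl reductase, differed by -0.52 in fat at 8 weeks (SE 0.12, adjusted p = 0.0492). The call was lost with median scaling (adjusted p = 0.0668), with no filter on dim probes (adjusted p = 0.0921), with a replicate block (adjusted p = 0.0644) and with each fat array left out except Wt 8 weeks replicate 1 and Akt1+/- 35 weeks replicates 1 and 2. In liver 4 genes of this list were called for genotype over both ages with median scaling and 2 with normexp, in place of 0. With age Oxsm rose in liver (0.30), H2-Ke6 (Hsd17b8, the other subunit of that reductase) in muscle (0.28) and in fat (0.25), and Lipt1 in fat (0.59). These were 1, 1 and 2 of the 8 genes in liver, muscle and fat, beside 35.1, 31.3 and 19.3% of all genes. Genes of the hepatic fasting response and clock genes were counted because feeding state and time of day move lipogenic genes. Of the 10 fasting genes 9, 8 and 8 were tested in liver, muscle and fat, and of the 11 clock genes 9, 10 and 11, with 0 of either list called for genotype, at either age or over both, or for the interaction. With age 2 of 9 fasting genes were called in liver, beside 35.1% of all genes, where G6pc (0.49) and Fgf21 (0.82) rose. In fat 0 of 8 were called, beside 19.3%. Of the clock genes, Cry1 fell in liver (-1.62) and in fat (-0.87), and Npas2 fell (-1.05) and Nr1d1 rose (1.21) in fat. That was 1 of 9 in liver, 0 of 10 in muscle and 3 of 11 in fat, beside 35.1, 31.3 and 19.3% of all genes. The mean of Cry1 in liver went from -2.40 to -4.85 in Wt and from -3.82 to -4.61 in Akt1+/- mice. At 35 weeks Cry1 was well above background on 2 of 4 Wt and 3 of 4 Akt1+/- liver arrays. With a filter on all arrays 0 clock genes were called for age in liver. Feeding state and time of day at sampling are not given in the sources used here, and their part was not tested.

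Several of the age calls in these lists did not hold with every array left out in turn. With 1 array or another left out, those of Insig1, G6pdx, Idh1, Me3, Scd3 and G6pc in liver, Pdha1 and Elovl1 in muscle and Pdha1, Dlat and Elovl7 in fat were lost. The arrays whose removal ended a call ran from 2 of 14 for Dlat to 12 of 14 for G6pdx in liver and Elovl1 in muscle. Without the muscle library that stood apart, Pdha1 (-0.23, adjusted p = 0.09) and Elovl1 (-0.27, adjusted p = 0.095) were not called, whereas Hacd1, Ppargc1b, Prkab1, Usf2, G6pdx, Me3, Scd3 and H2-Ke6 were called in the same direction. With median scaling Prkag1 (0.09, adjusted p = 0.336), G6pdx (0.07, adjusted p = 0.583), Me3 (0.72, adjusted p = 0.0605), Oxsm (0.10, adjusted p = 0.307) and G6pc (0.29, adjusted p = 0.105) were not called in liver. Each age difference is averaged over the genotypes, which did not always change alike. The mean of Scd3 in liver went from -5.58 to -5.53 in Wt and from -5.86 to -3.62 in Akt1+/- mice.

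The genes whose pattern was most like the mean of the 10 genes over the 14 arrays of a tissue were listed by Pearson's r, as a description. In fat these were Adcy10 (0.95), Acss2 (0.95), which makes acetyl-CoA from acetate, Mpc1 (0.95), a subunit of the mitochondrial pyruvate carrier, Tkt (0.94), the transketolase of the pentose phosphate pathway, and 9630013D21Rik (0.93). In liver they were Cd300lf (0.91), Sh3pxd2b (0.90), AK077974 (0.83), Fry (0.83) and AK081392 (0.82). In muscle they were NAP051804-1 (0.90), Treml1 (0.89), Dbt (0.87), Sh3kbp1 (0.85) and Rfc1 (0.85).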

How the data were processed

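RNA was hybridised to 42 Agilent one-colour arrays. The authors deposited the scanner output, in which the processed signal is a background-subtracted intensity that was not normalized between arrays (Feature Extraction 9.5.3.1 in the file headers, 9.1 in the submitters' processing notes), and a table of log2 values, which correlated with the log2 of these intensities at 1 and is close to them scaled to each array's 75th percentile. Levels here are the log2 of the intensity, less the 75th percentile of the non-control probes on that array. A probe was kept where 3 or more arrays of a group in that tissue had it well above background. An outlier spot removed its probe (52 probes of liver, 105 of muscle, 29 of fat and 182 over all), and the brightest probe stood for a gene. Names came from the accession on the array and RefSeq for 24375 of the 41174 probes, from a current symbol for 6301 and an older one for 2426, and 8072 kept the array's name. Array coordinates are on mm8 and were not mixed with GRCm38.p6. Group means were fitted with limma 3.58.1 in R 4.3.3 in each tissue (17561, 17138 and 18366 genes) and over all arrays for comparisons between tissues (19861 genes), in place of the two-way analysis named in the methods, which was run as an alternative. P-values were adjusted over all genes and called under 0.05. The fits were tested on simulated data, where 85, 88.5 and 82.5% of changed genes were recovered for genotype in liver, muscle and fat, and 87.5% for the level between liver and muscle, with 0, 11, 13 and 6 false calls.

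The members and lists were chosen with earlier results of these data known. The text names every member with its probes and Akt1, of the lists each gene called for genotype or interaction and the 3 largest rises and falls among those called for age, called fasting and clock genes, and the 5 genes most like the mean of the members in each tissue. The age result of the fasting genes in muscle is not reported here.

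Replicate numbers are shared by the genotypes in the labels. Deviations of same-numbered arrays correlated at -0.195 to 0.0731 at 8 weeks (9 pairs) and at 0.105 to 0.526 at 35 weeks (12 pairs, each best with its own number), so that the numbers paired the samples at 35 weeks only, where they also give the place on the slide. Of 12 slides, 1 muscle and 1 fat slide at 8 weeks held both genotypes.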

Additional observations from a re-analysis of the deposited data

Results flagged for a closer look

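In groups of 4 arrays, 6 of 66 groups of a gene had an array far from the other 3, and chance gives about 1 in 20 groups. Levels are log2 signals relative to the 75th percentile of the array. In liver, Acly on Akt1+/- 35 weeks replicate 1 was at 0.063 beside 0.50 to 0.56 on the other arrays, and Elovl6 on Wt 35 weeks replicate 1 was at 1.98 beside 2.62 to 2.69. In fat, Akt1+/- 35 weeks replicate 3 was high in Acaca (2.10 beside 1.51 to 1.60) and in Elovl6 (1.58 beside 0.82 to 0.87). Akt1 itself was low on fat Wt 35 weeks replicate 4 (3.65 beside 3.82 to 3.85) and high on fat Akt1+/- 35 weeks replicate 1 (3.29 beside 3.12 to 3.14), which left the genotypes apart.

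The test of the difference itself called an unlike age difference between tissues in Acaca (-0.79 in fat minus liver), Acacb (-0.63 in fat minus liver) and Acly (-0.43 in fat minus liver and -0.65 in fat minus muscle). The 3 calls of fat minus liver were lost with the slide block, with median scaling and without liver Wt 8 weeks replicate 3, and that of Acly in fat minus muscle with the mean of both probes. The genotype difference of Elovl3 in liver was called as unlike between the ages (interaction 2.70), which 7 of the 14 liver arrays, left out in turn, ended.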

How the results depend on the processing

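Each value was recomputed with other settings and with each array left out. Of 9273 such values of 264 log2 differences, 81 lost a call, 83 gained one and 3 reversed, and 299 that were never called changed sign. Counts of called members that changed by more than 1.5 times were as follows. For genotype in liver over both ages, 0 became 2 with normexp and quantile normalization and 2 in the fit over all 42 arrays, and 1 with a replicate block and 1 with the methods' unadjusted test, and at 8 weeks 1 with normexp. The methods' unadjusted test also gave 1 in muscle (Srebf1) and 1 in fat (Thrsp) over both ages. In fat at 8 weeks, 0 became 1 with normexp, 1 with a filter on all arrays, 1 with the replicate block (Scd1), 1 with slide as a random block and 3 over all 42 arrays, where the interaction gave 2. Age in fat gave 1 (Acly) with normexp, with the slide block and over all 42 arrays. The age difference of liver minus muscle gave 1 (Scd1) with median scaling, the filter on all arrays and the replicate block, that of fat minus liver 1 with median scaling and 0 with the slide block in place of 3, and that of fat minus muscle 0 in place of 1 with the mean of all probes. Reversed values were Me1 in fat minus liver (-0.36, mean of all probes), Akt1 in fat minus muscle (-0.038, median scaling) and the age difference of Acly in fat minus muscle (0.031, mean of all probes). With each array left out, the counts ranged from 0 to 1 for genotype in liver, age and interaction in fat, the genotype effect of fat minus liver and the age effect of liver minus muscle, from 0 to 2 for fat at 8 weeks, from 0 to 4 for the age effect of fat minus liver and from 1 to 2 for that of fat minus muscle. For age in liver the count ranged from 2 to 3 in this way. The replicate block also called Acacb for age in liver (0.36, adjusted p = 0.038) and changed no other call of a member. Other settings left 14 of the 24 counts of members within 1.5 times, and of 450 counts over the lists 411 stayed within 1.5 times, 13 were lower and 26 higher. Some of these 14 still gained calls. Age in liver gained Fasn with normexp (0.44, adjusted p = 0.00783) and Acly with the mean of all probes (0.69, adjusted p = 0.0162). It gained Scd1 with median scaling (-0.80, adjusted p = 0.0468), and age in muscle gained Acaca with the mean of all probes (0.35, adjusted p = 0.0112).

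Counts over all genes moved further, from 245 to 3134 (1102 as reported) for genotype in liver, from 11 to 810 (98) for its interaction, from 78 to 1141 (379) at 8 weeks and from 197 to 1166 (626) at 35 weeks. In muscle they reached 957 over both ages, 380 for the interaction and 266 at 8 weeks (0 each) and ran from 0 to 92 (17) at 35 weeks. In fat they ran from 1 to 1211 (151) over both ages, from 58 to 1435 (302) for the interaction, from 7 to 1533 (338) at 8 weeks and from 145 to 419 (315) at 35 weeks. The largest shift with median scaling was that of liver at 35 weeks, where 33.9% in place of 93.9% of called genes were higher for genotype. Over both ages in liver it was 15.7% in place of 59.6%. The number of arrays limits the precision, and genes below the filter on dim probes have no test.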
